A study of Homo sapiens with 6 samples.

Results

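The genes described here are TRAIL (*TNFSF10*), the receptors that bind it (*TNFRSF10A*, *TNFRSF10B* and the decoy *TNFRSF10D*), the death receptor *FAS*, the caspase-8 inhibitor *CFLAR* and the caspase genes *CASP4* and *CASP8*. They were taken by gene symbol, and all 8 are among the 22807 genes of the table. RNA sequencing had been done on 6 libraries of MDA-MB-453, an established HER2+ breast cancer cell line with a wild-type genotype per the labels. In 3 libraries the cells had been transfected with *DUSP6* siRNA, and in the other 3 with scrambled siRNA, which is the control. DUSP6 is a phosphatase that removes phosphate from the MAP kinase ERK, and the knockdown was made to read which transcriptional programs change when it is depleted. The study's methods give 3 different siRNAs per group and do not tie them to single libraries, so the spread within a group may hold a difference between siRNAs, and the labels do not say whether the libraries came from separate cultures. The p-values below measure the spread between these libraries.

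TRAIL is a membrane ligand that leukocytes use against transformed cells, and its gene is a known target of interferons. When TRAIL binds the receptors DR4 or DR5, or when FAS ligand binds FAS, the receptor recruits the adaptor FADD, which brings procaspase-8 molecules together so that they activate each other. Active caspase-8 starts a cascade of proteolysis that kills the cell, while cFLIP, the product of *CFLAR*, takes its place in the same complex and holds it back. Caspase-4 belongs to another branch: it senses bacterial lipopolysaccharide in the cytosol and cleaves gasdermin D, whose pores lead to pyroptosis.

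The sequence upstream of a start shows where an interferon-responsive site could lie, so RefSeq promoter windows on GRCh38.p14, each from 250 bases before to 50 bases after a start, were searched on both strands for the core of the interferon-stimulated response element, GAAANNGAAA. Windows were found for 5 of the 8 genes (*TNFSF10*, *FAS*, *CFLAR*, *CASP4* and *CASP8*), 12 windows in all. The core was in 2 of these 12 windows, against 3.57% of all 35116 windows searched. Some genes have several windows, and by gene it was in 2 of the 5, against 4.38% of all genes searched. With so few genes, chosen with earlier results known, this is a description and no test. The 250 bases before the start of *TNFSF10* (chr3:172523431-172523680, minus strand) and 30 bases around the first listed start of *CASP8* (chr2:201233448-201233477, plus strand) are printed below because they are the stretches that hold it. Capitals mark the match, which in both genes is the reverse complement of the core.
TNFSF10: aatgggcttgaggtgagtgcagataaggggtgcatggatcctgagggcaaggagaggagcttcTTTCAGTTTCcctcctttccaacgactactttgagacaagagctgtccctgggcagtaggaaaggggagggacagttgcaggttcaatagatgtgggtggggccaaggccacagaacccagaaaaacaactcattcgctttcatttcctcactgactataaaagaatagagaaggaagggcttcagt
CASP8: ctgagtttttggTTTCTGTTTCaccttgtg
In *TNFSF10* the match spans bases -187 to -178 from the start, and in *CASP8* it spans -3 to 7 and so crosses the start. A second motif, the core of the gamma-activated site TTCNNNGAA, was in 1 of the 12 windows, that of *CASP8* from -200 to -192, against 7.66% of all windows, and it does not overlap with the other match there. These matches describe letters in a window, and no binding was measured.

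*DUSP6* itself was checked first. In normalized values, which are the reads of a gene relative to the scaled library size, the controls were at 209, 110 and 114 and the knockdown libraries at 39.4, 24.5 and 35.2. Values are listed in the order of replicates 1, 2 and 3 throughout, with scrambled siRNA libraries called controls and *DUSP6* siRNA libraries called knockdown libraries. The groups did not overlap, and the log2 fold change was -2.05 (standard error 0.25, limma adjusted p = 3.09e-04). Except where an alternative way of processing is given, log2 fold changes are differences of log2(value + 1) between *DUSP6* siRNA and scrambled siRNA. This scale understates the change of genes with low values. Library totals ranged from 45546981 to 85729785 reads, so 1 read is worth a value of 0.0121 to 0.0202. All 6 markers of luminal breast epithelium (*ERBB2*, *FOXA1*, *KRT8*, *KRT18*, *EPCAM* and *CDH1*) were above 1 in every library, and their summed level was 2465 to 3246 with scrambled and 1879 to 1988 with *DUSP6* siRNA. Of 2 leukocyte markers, *PTPRC* was at most 0.0809 and *CD68* was at 3.41 to 5.47, and all 3 endothelial markers were below 1 in every library. Of 3 fibroblast markers, *COL1A1* was detected at 80.7 to 192 with *COL1A2* and *PDGFRB* below 1 in every library, and the summed level of the 3 was 80.8 to 105 with scrambled and 162 to 192 with *DUSP6* siRNA. Of 3 basal markers, *TP63* was detected at 1.37 to 15.2 with *KRT5* and *KRT14* below 1 in every library. The summed level of these 3 was 7.71 to 15.8 with scrambled and 2.05 to 2.93 with *DUSP6* siRNA, and it does not show a shift of each marker. The part of these shifts in the results below was not tested. All libraries are of 1 cell line, and in its bulk RNA fewer cells that express a gene and less RNA per cell cannot be told apart.

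Depletion of *DUSP6* went with opposite movements among these genes. The death receptor genes *FAS* and *TNFRSF10B* rose, *CFLAR* and *CASP8* fell, and *TNFSF10*, *TNFRSF10A* and *CASP4* did not pass the test. Thus 2 of the 7 genes tested were higher and 2 were lower, at a limma adjusted p under 0.05 over all genes tested. Across the 12862 genes tested, 44.5% were called, 19.7% higher and 24.7% lower, so a call does not set these genes apart from genes at large. The median log2 fold change of the 7 genes was -0.00, against -0.01 over all genes tested, where the median size without sign was 0.29. In 2 genes all *DUSP6* siRNA libraries lay above all scrambled siRNA libraries and in 2 they lay below, patterns shown by 26.7% and 31.1% of all genes tested. The two-sided exact permutation test of a single gene gave p = 0.1 for each of these 4 genes, the smallest p that 3 libraries against 3 allow.

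**Figure D1:**
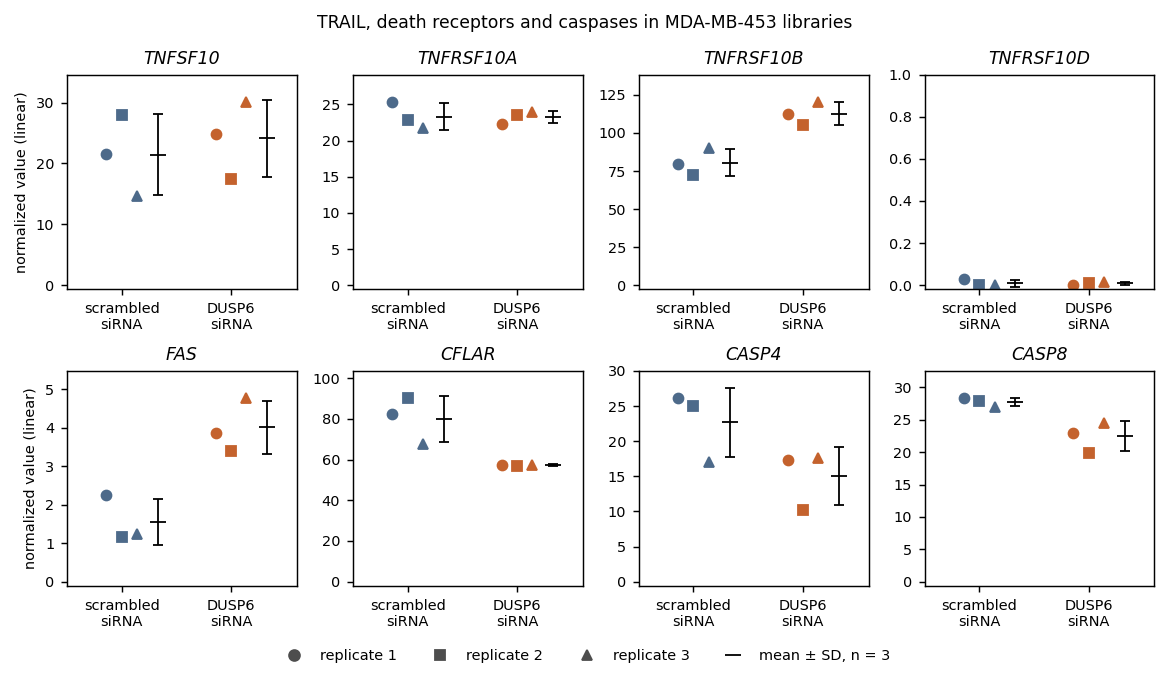
Normalized value (linear axis from 0, a separate scale for each gene) of the 8 genes in each library, with points shaped by replicate number and bars giving the mean ± SD of the 3 libraries of a group. *TNFRSF10B* and *FAS* lie higher in all 3 *DUSP6* siRNA libraries and *CFLAR* and *CASP8* lower, while the groups overlap for *TNFSF10*, *TNFRSF10A* and *CASP4* and *TNFRSF10D* stays near 0.

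*TNFSF10*, the ligand gene (chromosome 3, 172505508 to 172523430, minus strand, 5 exons), showed no shift that could be told from its spread. Its normalized value was 21.6, 28.0 and 14.7 in the controls and 24.9, 17.4 and 30.1 in the knockdown libraries. Replicate 2 was the highest control and the lowest *DUSP6* siRNA library, and replicate 3 was the reverse, so the groups overlapped over most of their range. The mean was 21.4 ± 6.67 (SD, n = 3) with scrambled and 24.1 ± 6.38 (SD, n = 3) with *DUSP6* siRNA. The log2 fold change was 0.17 (standard error 0.24, 95% interval -0.38 to 0.73, limma adjusted p = 0.581), an interval that leaves room for a change of either sign. It turned to -0.06 without control replicate 3 and was 0.38 without knockdown replicate 2, and it was not called in any of the 14 alternatives. The profile of *TNFSF10* over the 6 libraries was taken as log2(value + 1) less the mean of the controls. By Euclidean distance the nearest were those of *KLF6*, a zinc finger transcription factor (0.303), *CPEB3*, an RNA-binding protein (0.365), and *SRGAP1*, a GTPase-activating protein (0.397). These 3 share libraries and depth with *TNFSF10*, were picked for their likeness among all genes tested, and were not called either.

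The interferon genes gave a different picture in the same libraries. A context list of 11 genes held type I and III interferons, the factors STAT2 and IRF9 that carry their signal, and target genes. It was higher in 11 of 11 (median log2 fold change 2.71, against the background of 19.7% higher). This list was written with earlier results of these data known, so the count describes the genes chosen and is no test. *IFIT1*, an antiviral RNA-binding protein gene, rose from 6.99 ± 4.85 to 1042 ± 55.2 (SD, n = 3 each), by 7.19 on the log2 scale (limma adjusted p = 1.51e-06). *ISG15*, a ubiquitin-like modifier, rose from 6.32 ± 3.45 to 181 ± 46.2, and *IRF9* rose from 17.2 ± 8.03 to 222 ± 2.71. The interferon lambda gene *IFNL1* rose from 0.0579 ± 0.0555 to 12.9 ± 4.37. *TNFSF10* and *CASP8*, whose windows hold the response element core, had log2 fold changes of 0.17 and -0.30 in the same fit.

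The receptors for TRAIL did not move together. *TNFRSF10B*, which encodes DR5 (chromosome 8, 23020133 to 23069031, minus strand, 9 exons), was at 79.6, 72.1 and 90.0 in the controls and 112.6, 105.3 and 120.3 in the knockdown libraries. Every *DUSP6* siRNA library lay above the highest control. The mean rose 1.40-fold, from 80.6 ± 9.0 to 113 ± 7.50 (SD, n = 3 each), a log2 fold change of 0.48 (standard error 0.11, 95% interval 0.25 to 0.72, limma adjusted p = 0.00577). The call held in all 14 alternatives, with a log2 fold change of 0.41 to 0.60. Exons of *RHOBTB2* cover 9.43% of those of *TNFRSF10B*, so its value is uncertain to that extent, and *RHOBTB2* was itself higher (22.8 to 31.3, log2 fold change 0.44, limma adjusted p = 0.0115).

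*TNFRSF10A*, which encodes the other death-signalling TRAIL receptor DR4, lies on the same chromosome (23190452 to 23225102, minus strand, 10 exons). The controls were at 25.3, 22.9 and 21.7 and the knockdown libraries at 22.3, 23.5 and 23.9. The groups overlapped, and the means of 23.3 ± 1.87 and 23.2 ± 0.844 (SD, n = 3 each) were nearly equal. The log2 fold change was -0.00 (standard error 0.10, 95% interval -0.23 to 0.23, limma adjusted p = 0.994). An increase of the size fitted for *TNFRSF10B* lies above this interval. The exons of *TNFRSF10A-AS1* and *TNFRSF10A-DT* together cover 13.4% of those of *TNFRSF10A*, and its value may be uncertain for that reason. The log2 ratio of *TNFRSF10B* to *TNFRSF10A*, a comparison added after the values were seen, was 1.61, 1.62 and 2.00 with scrambled and 2.29, 2.12 and 2.29 with *DUSP6* siRNA. It was higher in all 3 *DUSP6* siRNA libraries, by 0.48 on average, with p = 0.1 in the exact permutation test (two-sided), again its minimum.

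The decoy receptors, which bind TRAIL without passing on a death signal, were barely detected. *TNFRSF10D* had 2, 0 and 0 reads in the controls and 0, 1 and 1 reads in the knockdown libraries. No library went above the floor of 3 reads that a count of 0 allows, so no fold change and no ratio to *TNFRSF10B* is given. *TNFRSF10C*, the other decoy and not among the 8 genes, had 16, 10 and 17 reads in the controls and 2, 5 and 4 reads with *DUSP6* siRNA. Its values did not overlap between groups, from 0.192 to 0.238 against 0.0404 to 0.0618, but they lie below the mean value of 1 needed for the test and 36.6% of its exons are shared with other annotated genes. These receptor genes are related and neighbor each other, with gaps of 18.1 to 33.9 kb between adjacent ones, and reads common to a pair could be assigned to either.

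*FAS*, the receptor of FAS ligand (chromosome 10, 88964050 to 89017059, plus strand, 9 exons), had the largest increase of the 8 genes from a low level. The controls were at 2.25, 1.17 and 1.23 and the knockdown libraries at 3.86, 3.40 and 4.76, which rest on 61 to 151 reads and 191 to 308 reads per library. All *DUSP6* siRNA libraries were above all controls. The mean rose 2.59-fold, from 1.55 ± 0.605 to 4.01 ± 0.691 (SD, n = 3 each), a log2 fold change of 0.99 (standard error 0.18, 95% interval 0.59 to 1.39, limma adjusted p = 0.00217). With edgeR on the recovered reads, which adds no value of 1, it was 1.40, and the call held in all 13 alternatives that kept the gene. *FASLG*, named after its values were seen, had 0 to 2 reads in every library, at or under the floor of 3 reads.

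*CFLAR* fell. The gene lies on chromosome 2 (201116164 to 201176687, plus strand, 10 exons), with values of 82.3, 90.1 and 67.8 in the controls against 57.5, 56.6 and 57.5 in the knockdown libraries. The controls were spread out and the *DUSP6* siRNA libraries lay close together, all below the lowest control. The mean went from 80.1 ± 11.3 to 57.2 ± 0.494 (SD, n = 3 each), a log2 fold change of -0.47 (standard error 0.11, 95% interval -0.72 to -0.21, limma adjusted p = 0.0091). The call held in all 14 alternatives, and its log2 fold change lay between -0.58, with control replicate 3 left out, and -0.38, with control replicate 2 left out. The table holds 1 value per gene, so the long and short forms of cFLIP were not told apart.

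*CASP8* lies downstream of *CFLAR* in the same chromosome 2 cluster (201233463 to 201287711, plus strand), with *CASP10* between them at gaps of 6.45 kb and 4.06 kb. Control values were 28.3, 27.9 and 27.1, against 22.9, 19.9 and 24.5 after knockdown. The groups did not overlap, and the highest *DUSP6* siRNA library lay close to the lowest control. The mean fell from 27.7 ± 0.638 to 22.5 ± 2.32 (SD, n = 3 each), a log2 fold change of -0.30 (standard error 0.11, 95% interval -0.54 to -0.06, limma adjusted p = 0.0457). This call was the least stable of the 4, with the same sign but an adjusted p above 0.05 in 9 of the 14 alternatives. Among these, the fold change was -0.22 (limma adjusted p = 0.166) without knockdown replicate 2. *CASP10*, the closest relative of *CASP8*, had 5, 13 and 13 reads in the controls and 13, 21 and 22 with *DUSP6* siRNA and fell under the filter for the test. Its normalized values, from 0.0744 to 0.249 against 0.257 to 0.340, did not overlap between groups but rest on these few reads.

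Since both proteins compete in 1 complex, *CASP8* was set against *CFLAR* within each library. The log2 ratio of value + 1 was -1.51, -1.66 and -1.29 in the controls and -1.29, -1.46 and -1.20 in the knockdown libraries. The ranges overlapped. The mean was -1.49 ± 0.18 with scrambled and -1.32 ± 0.13 with *DUSP6* siRNA (SD, n = 3 each), a difference of 0.17 (two-sided exact permutation test, p = 0.2, where 3 libraries against 3 cannot go below 0.1). The test could therefore not have passed 0.05 at any difference.

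*CASP4* (chromosome 11, 104942866 to 104968574, minus strand, 9 exons) missed the threshold by a small margin. The values were 26.1, 25.0 and 17.1 without and 17.3, 10.3 and 17.6 with knockdown. Control replicate 3 lay below 2 of the *DUSP6* siRNA libraries. The mean was 22.7 ± 4.92 against 15.0 ± 4.14 (SD, n = 3 each), with a log2 fold change of -0.58 (standard error 0.22, 95% interval -1.08 to -0.08, limma adjusted p = 0.0594). Without control replicate 3 it was -0.76 and was called (limma adjusted p = 0.0174). The fold change was larger in size than those of *CFLAR* and *CASP8*, and so was its standard error. The related neighbors *CASP1* and *CASP5*, named after their values were seen, had 1 to 22 and 6 to 13 reads per library, so few reads in this cluster came from them.

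**Figure D2:**
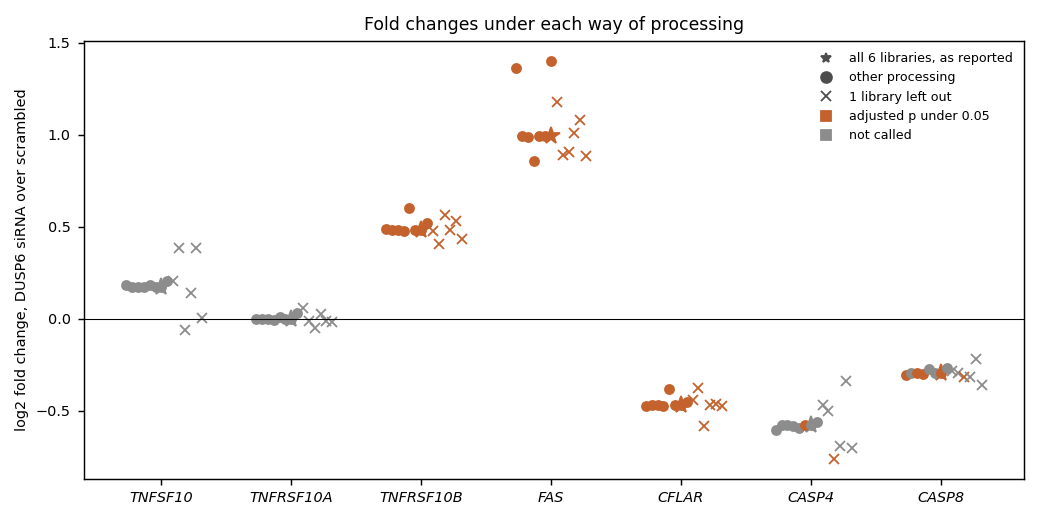
Log2 fold change (vertical axis, *DUSP6* siRNA over scrambled siRNA) of the 7 genes tested under each way of processing: stars are the values reported, circles other processing and crosses fits with 1 library left out, in orange where the adjusted p was under 0.05 and gray elsewhere. *TNFRSF10B*, *FAS* and *CFLAR* are orange throughout, whereas *CASP8* is called in 5 and *CASP4* in 2 of 14 alternatives.

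Levels can be compared between genes once divided by transcript length, and this was done with the exon length of each MANE Select transcript. With scrambled siRNA the order was *TNFRSF10B* (20.2 ± 2.25 per kb), *CASP4* (17.5 ± 3.80), *TNFSF10* (11.4 ± 3.55), *CASP8* (10.4 ± 0.240), *TNFRSF10A* (8.66 ± 0.693), *CFLAR* (5.48 ± 0.774) and *FAS* (0.419 ± 0.164), each as mean ± SD of 3 libraries. From *TNFRSF10B* to *CASP8* the libraries of each gene overlapped with those of the next, and from *CASP8* to *FAS* they did not. With *DUSP6* siRNA, *TNFRSF10B* (28.2 ± 1.88 per kb) lay above *TNFSF10* (12.9 ± 3.40) and *CASP4* (11.6 ± 3.19) in every library. From *TNFSF10* through *CASP4* and *TNFRSF10A* (8.64 ± 0.314) to *CASP8* (8.45 ± 0.874) each gene overlapped with the next, and below them without overlap came *CFLAR* (3.91 ± 0.0338) and *FAS* (1.08 ± 0.187). The level given for *CFLAR* depends on its long MANE transcript of 14.6 kb and would be higher per kb for a shorter one.

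**Figure D3:**
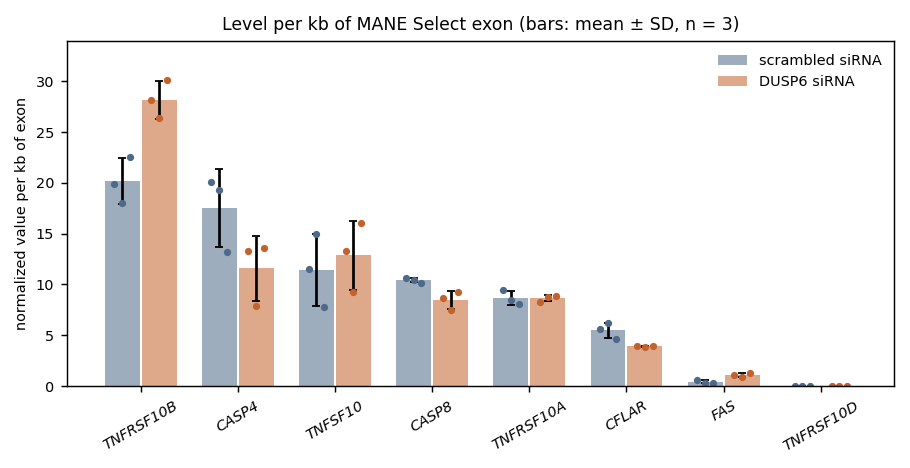
Normalized value per kb of MANE Select exon (vertical axis from 0) for the 8 genes, with bars for the mean, whiskers for the SD and points for the 3 libraries of each group. *TNFRSF10B* has the highest mean in both groups, at 20.2 and 28.2, although *CASP4* lies above it in 2 of the 3 control libraries, and *FAS* lies at 0.419 and 1.08, below the other genes except *TNFRSF10D*.

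Around these genes, 5 lists of pathway genes were examined, with 78 genes beside the 8. Of these, 47 were tested, 14 were higher, 18 lower and 15 not called, with a median log2 fold change of -0.01. Over all genes tested, 44.5% were called, and the shares in each direction stand beside the counts below, which are descriptions without a test. These lists were written with earlier results of these data known.

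Of 16 other death ligands and receptors listed, 5 were tested, of which 4 fell (24.7% of all genes tested did) and 1 rose (19.7%), with a median log2 fold change of -0.35. *TNFRSF1A*, the main receptor of TNF, was 102, 106 and 96.8 in the controls and 72.0, 62.2 and 73.2 with *DUSP6* siRNA. It fell by 0.55 on the log2 scale (limma adjusted p = 0.00184), the opposite direction from *FAS* and *TNFRSF10B*. *TNFRSF25*, which encodes DR3, fell by 0.70 (limma adjusted p = 0.0049). Exons of *ESPN* cover 19.5% of those of *TNFRSF25*, and *ESPN* itself fell from 128 to 23.1 (log2 fold change -2.43), far above the *TNFRSF25* means of 2.16 and 0.926, so the *TNFRSF25* value is uncertain. *LTBR*, the lymphotoxin beta receptor, fell by 0.35 (limma adjusted p = 0.0131). *TNFRSF12A*, which encodes the TWEAK receptor, rose from 148 ± 9.56 to 201 ± 21.9 (log2 fold change 0.44, limma adjusted p = 0.00871). *LTBR* lost its call under quantile normalization (-0.23) and without knockdown replicate 2 (-0.30) or 3 (-0.36), as did *TNFRSF12A* without knockdown replicate 3 (0.36).

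Among 15 tested adaptors, kinases and ubiquitin enzymes of the receptor complexes, 5 rose (19.7% of all genes tested did), 4 fell (24.7%) and 6 were not called. *FADD*, the adaptor that links DR4, DR5 and FAS to caspase-8, was 62.8, 60.5 and 58.8 in the controls and 66.5, 66.4 and 66.9 with *DUSP6* siRNA. All 3 *DUSP6* siRNA libraries were above the controls, but the log2 fold change of 0.13 (standard error 0.08) did not pass the test (limma adjusted p = 0.213). It was called under quantile normalization at 0.22 (limma adjusted p = 0.0497). *TNFAIP3*, the ubiquitin-editing NF-κB inhibitor A20, rose 4.03-fold, from 2.20 ± 0.146 to 8.86 ± 1.51 (log2 fold change 1.62, limma adjusted p = 3.62e-05). *RNF31*, the catalytic subunit of the linear ubiquitin ligase, rose from 53.0 ± 6.27 to 103 ± 3.53, as did *RBCK1*, another subunit named after its values were seen, from 155 ± 13.4 to 213 ± 31.8 (log2 fold change 0.45, limma adjusted p = 0.018). Other annotated genes, *PSME2* among them, share 99.3% of the exons of *RNF31*, and its value may be uncertain for that reason. *SHARPIN*, the remaining subunit, had a log2 fold change of -0.22 and was not called (limma adjusted p = 0.0826). *CYLD*, a deubiquitinase that removes linear chains, rose by 0.62, and *MLKL*, the pore-forming executor of necroptosis, fell by 0.66 on the log2 scale. *FAF1*, a FAS-associated factor, was not called, at 0.05 on the log2 scale (limma adjusted p = 0.621).

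Of the other caspases, 4 were tested, of which 1 rose (19.7% of all genes tested did) and 3 fell (24.7%, median log2 fold change -0.45). *CASP9*, the initiator of the mitochondrial route, was 5.37, 5.02 and 5.58 in the controls and 7.34, 9.37 and 8.02 with *DUSP6* siRNA. It rose from a mean of 5.32 ± 0.283 to 8.24 ± 1.03 (log2 fold change 0.54, limma adjusted p = 0.00594), opposite to *CASP8*, the initiator of the receptor route. *CASP2* fell by 0.46 (limma adjusted p = 0.00337). *CASP14*, a caspase of epidermal differentiation, fell from 4.29 ± 0.215 to 0.414 ± 0.254, by 1.92 on the log2 scale (limma adjusted p = 2.07e-05).

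On the inflammatory side that caspase-4 belongs to, 7 genes were tested, of which 3 fell (24.7% of all genes tested did) and 4 were not called. The 3 were *IL18*, a cytokine that inflammatory caspases mature (from 3.20 ± 0.950 to 1.07 ± 0.364), *NINJ1*, which ruptures the membrane of dying cells (from 41.1 ± 1.93 to 23.0 ± 0.924), and *GSDMB*, a pore-forming gasdermin (from 15.3 ± 3.59 to 8.84 ± 1.35). *GSDMD*, the gasdermin that caspase-4 cleaves, was 33.9 ± 7.83 in the controls and 38.0 ± 6.20 with *DUSP6* siRNA (log2 fold change 0.18, limma adjusted p = 0.44). *CARD8*, an inflammasome sensor, had a log2 fold change of 0.06 and was not called (limma adjusted p = 0.64).

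Of 16 inhibitors of apoptosis, apoptosome components and execution genes tested, 7 rose (19.7% of all genes tested did), 4 fell (24.7%) and 5 were not called. *XAF1*, an interferon-inducible antagonist of XIAP, had 2, 0 and 1 reads in the controls and 285, 161 and 414 reads with *DUSP6* siRNA. The fitted log2 change, 2.38 (limma adjusted p = 3.35e-04), depends on the 1 added to each value and is no bound. *BIRC2*, which encodes the ubiquitin ligase cIAP1 of the TNF receptor complex, rose from 85.2 ± 3.47 to 135 ± 11.1 (log2 fold change 0.65). *DIABLO*, the mitochondrial IAP antagonist SMAC, fell from 49.1 ± 2.76 to 29.6 ± 0.505 (log2 fold change -0.71). *DFFA*, the inhibitor of the apoptotic DNase, fell from 36.2 ± 4.22 to 17.9 ± 0.0672 (log2 fold change -0.97). *BIRC6* and *CYCS* (cytochrome c) had log2 fold changes of -0.12 and -0.09 and were not called (both 0.07 under quantile normalization), and *CYCS* was called at -0.25 (limma adjusted p = 0.0455) without control replicate 2.

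**Figure D4:**
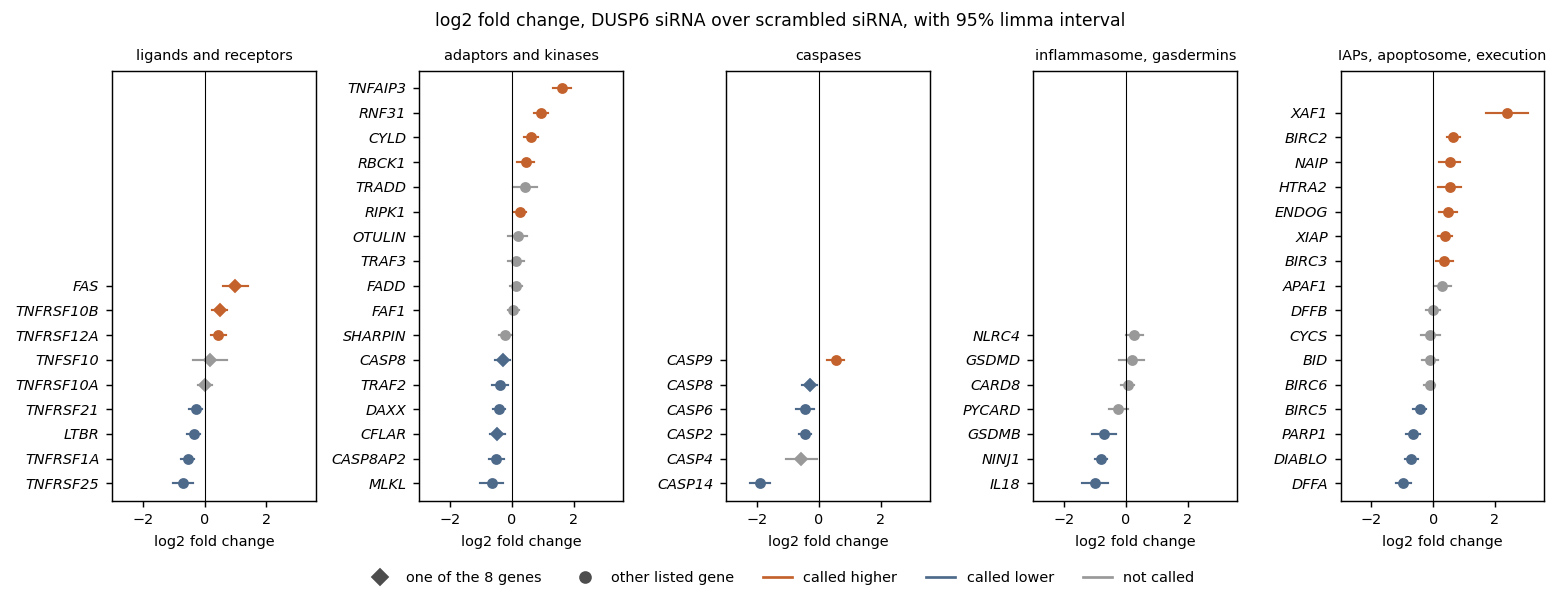
Log2 fold change (horizontal axis, *DUSP6* siRNA over scrambled siRNA) with its 95% limma interval for the genes tested in the 5 pathway lists, 1 panel per list, with diamonds for the 8 genes and circles for other listed genes, in orange (higher), blue (lower) or gray (not called). Each list but that of inflammasome partners and gasdermins holds genes of both directions, and *CASP8* appears in 2 lists.

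Of the genes named here, several share exon sequence in GENCODE with another annotated gene on the same or the opposite strand. Reads were assigned to RefSeq gene models, so an overlap makes a value uncertain only where RefSeq holds the other gene too. *RHOBTB2*, *CFLAR-AS1* and *ESPN* have values in these data and so are held, and which of the others it holds was not checked. Overlapping genes with a symbol include *PSME2* for *RNF31*, *B3GNT4* for *DIABLO*, *PEX14* for *DFFA* and *PRAL* for *XAF1*. For *FADD*, *DUSP6*, *CASP8* and *IRF9* the overlapping genes have an Ensembl identifier and no symbol. The share was 100% for *DIABLO*, 99.3% for *RNF31*, 93.1% for *IRF9*, 74.2% for *XAF1*, 59.2% for *FADD*, 24.1% for *DUSP6*, 11.2% for *DFFA* and 7.78% for *CASP8*. Smaller shares include 4.00% for *CFLAR* and 2.95% for *FAS*. Among the cell type markers it was 100% for *CD68* and 26.5% for *KRT18*, whose overlap is with *KRT8*.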

How the data were processed

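Libraries had been made with the TruSeq stranded mRNA kit and sequenced on a NovaSeq instrument. The authors aligned the reads to hg38 and assigned them to RefSeq gene models with Rsubread 2.0.0 at its default settings, and deposited, for every gene in each library, a normalized signal value that is not log-transformed. The normalization is not given in the sources used here, and edgeR is listed in the submitters' processing notes. In all libraries 100% of the deposited signal values were whole multiples of the value of 1 read (tolerance 0.01 reads), and the recovered scaling differed by at most 2.80e-10 from that of edgeR's TMM. Depth and composition were therefore already adjusted for. The scaling factors were 0.881, 0.923 and 0.968 in the controls and 1.09, 1.08 and 1.08 in the knockdown libraries. They differ between the groups, so the fold changes, small ones most, depend on this scaling. Of 22807 genes, 349 without a symbol were kept under their IDs.

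Groups were taken from the sample labels, 3 libraries each. The test was limma 3.58.1 under R 4.3.3 on log2(value + 1), run on the 12862 genes whose value averaged 1 or more, with lmFit, eBayes with a trend and Benjamini-Hochberg adjustment, and called at an adjusted p under 0.05. Floors and read counts cover counting error only. The 8 genes and all lists were chosen with earlier results of these data known. Beside the 8 genes and *DUSP6*, the genes named were, per list, up to 4 called genes with the largest fold change and up to 2 not called with the highest mean, *FADD*, *TNFRSF10C*, *CASP9* and *CASP10*, and the 3 nearest profiles to *TNFSF10*. Positions were taken from RefSeq on GRCh38.p14 (22359 of 22807 IDs matched), and exon lengths and overlaps from GENCODE on GRCh38. Lengths were those of MANE Select transcripts. *RIPK3* and *AIM2* of the lists were not analysed here, and a few other listed genes are not reported here and are left out of the counts.

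The alternatives tried were quantile normalization, median-of-ratios rescaling, adding 0.1 in place of 1, testing every gene or those averaging at least 10, leaving the trend out of eBayes, blocking on the replicate number, quasi-likelihood testing of the recovered reads in edgeR 4.0.16, and omitting each library in turn. On simulated data with an assumed spread, 200 of 12862 genes were given a log2 change of 1 up or down. Of these, limma called 99.5% and edgeR 100%, with 11 and 13 false calls. *TNFRSF10B*, *CFLAR*, *CASP8* and *CASP4* changed less than this, so these shares do not hold for them.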

Additional observations from a re-analysis of the deposited data

How the results depend on the processing

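*TNFRSF10B*, *FAS*, *CFLAR* and *DUSP6* kept their direction and their call under every alternative that could be fitted, and *TNFSF10* and *TNFRSF10A* were called in none. *CASP8* kept its sign but lost its call with no filter (log2 fold change -0.30), quantile normalization (-0.27) and edgeR on the recovered reads (-0.27), and its fold change ranged from -0.36 to -0.22 with 1 library left out. That call was lost without scrambled siRNA replicate 1 (limma adjusted p = 0.0868) or 2 (0.074) and without *DUSP6* siRNA replicate 1 (0.108), 2 (0.166) or 3 (0.0682). *CASP4* ranged from -0.76 to -0.34 with 1 library left out. The number of the 8 genes called higher was 1 with a mean value of at least 10, which removes *FAS*. The number called lower was 1 with no filter, quantile normalization or edgeR, and ranged from 1 to 3 with 1 library left out. The other genes of the pathway called higher were 9 with a mean value of at least 10, and ranged from 7, without *DUSP6* siRNA replicate 3, to 15, with 8 without *DUSP6* siRNA replicate 1 and 9 without *DUSP6* siRNA replicate 2. Among 29 other genes named, 390 of 399 refits kept direction and call, and no called gene turned sign. These 29 do not include *RBCK1*, *RHOBTB2*, *ESPN*, *KLF6*, *CPEB3* and *SRGAP1*, so the stability of those was not examined gene by gene. *GSDMD*, not called, went to -0.01 without scrambled siRNA replicate 2, and *BIRC6* and *CYCS*, not called, went to 0.07 under quantile normalization. Over all genes tested, the number higher fell from 2540 to 1574 without *DUSP6* siRNA replicate 2 and to 1639 with a mean value of at least 10. Same-numbered libraries did not deviate together over all genes tested (correlations 0.01, 0.09 and -0.08). A pairing by number was thus not seen, but so few libraries cannot exclude it. With the replicate block *CASP4* was called (-0.58, limma adjusted p = 0.0324) and *CASP8* was not (-0.30, limma adjusted p = 0.0779), with 2495 genes higher and 3096 lower. The cause of these differences was not tested, apart from the removal of *FAS* by its filter. At 0 to 2 reads per library, a difference in *TNFRSF10D* was not detectable at this depth.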
